A study of Danio rerio with 6 samples.

Results

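The broad peaks of histone H3 lysine 27 acetylation (H3K27ac) in the zebrafish melanoma cell line zcrest were chosen by width alone, as the H3K27ac peaks of the line that span 1000 bases or more. They numbered 2297 of 50338, 4.56% of the peaks and 15.6% of the bases inside peaks (3.08 of 19.8 Mb). The other 48041 peaks were under 1000 bases and are called the narrower peaks. Chromatin immunoprecipitation followed by sequencing (ChIP-seq) gave 1 peak list for each of 3 libraries: H3K27ac in zcrest, H3K27ac in a primary melanoma taken fresh from a fish, and sox10 in zcrest. Zcrest had been passaged more than 20 times, and its founder fish carried p53/BRAF/Na and crestin:EGFP, with MiniCoopR alone, a vector that carries a mitfa minigene and lets melanocytes form from the cells that took it up. The primary melanoma grew in a p53/BRAF/Na fish that received MiniCoopR;mitf:EGFP as a control plasmid, and the bulk of the tumor was used, so cells other than melanoma cells may be included. Both H3K27ac sources thus share p53/BRAF/Na and MiniCoopR, and differ in fish, in culture and in the EGFP reporter. Each source is 1 line or 1 tumor with 1 library and no replicate, so no test between sources is possible and every share below describes single libraries. The exact (Clopper-Pearson) 95% interval given with a share covers counting error alone, and it treats neighbouring peaks as independent, which they are not.

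Acetylation of lysine 27 is placed on nucleosomes beside active promoters and enhancers by acetyltransferases of the CBP family, and it is lost when these elements fall silent. A single enhancer or promoter usually gives a short acetylated stretch around a gap where nucleosomes are displaced by bound factors. Long unbroken stretches are known from strong promoters and from clusters of enhancers near genes of cell identity, which in melanocytes and melanoma include genes of the neural crest program driven by sox10.

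The broad peaks were mostly just past the width threshold. Their median width was 1219 bases, the upper quartile was 1467 bases, 123 reached 2000 bases or more, and the widest spanned 5178 bases. The median width of the narrower peaks was 283 bases. Fold enrichment is the authors' value for each peak, a ratio over the background of the peak caller. Its median was 9.23 in broad peaks, with a range of 1.71 to 30.7, against 5.18 in narrower peaks, with a range of 1.31 to 29.5. The median −log10 q was 37.1 in broad and 9.69 in narrower peaks. Width chose the members and comes from the same signal as these values, so they are a description only.

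The threshold cut a smooth distribution. There were 71 peaks of 1000 to 1009 bases, with a median fold enrichment of 9.29, and 81 of 990 to 999 bases, with a median of 8.68. A tumor H3K27ac peak lay on 78.9% of the 71 and on 81.5% of the 81. Exactly 1000 bases were spanned by 9 peaks and exactly 999 by 6. Of those just inside, the first 3 in order of chromosome name were on chr10:35576107-35577106 (4.40-fold), on chr13:43231763-43232762 (8.995-fold) and on chr18:19814609-19815608 (12.7-fold). Of those just outside, the first 3 in the same order were on chr10:37894075-37895073 (7.82-fold), on chr18:19553677-19554675 (9.70-fold) and on chr19:22998744-22999742 (12.6-fold). Positions are 1-based on the Zv9 assembly.

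Most broad regions of the line were also acetylated somewhere in the tumor. A tumor H3K27ac peak overlapped 1974 of the 2297 broad peaks by at least 1 base (85.9%, interval 84.5% to 87.3%) and 22125 of the narrower peaks (46.1%, 45.6% to 46.5%). Over all zcrest H3K27ac peaks the share was 47.9%. A wide peak meets another list more often through its width alone. The summit, the single base of highest signal, has no width. It lay inside a tumor peak for 1483 broad peaks (64.6%, 62.6% to 66.5%) and for 16741 narrower peaks (34.8%, 34.4% to 35.3%), against 36.2% over all zcrest H3K27ac peaks. In the 1000 bases centred on the summit, tumor peaks covered 44.7% of bases for broad and 21.7% for narrower peaks. The cover was 33.3% for the narrower peaks of 500 to 999 bases. More of this window lies inside the zcrest peak when the peak is wide, so width still enters this measure.

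The share rose with width on both sides of the threshold, with no step at 1000 bases. Summits inside a tumor peak made up 21.0% of peaks under 200 bases, 53.3% at 500 to 749, 59.6% at 750 to 999, 62.7% at 1000 to 1249 and 67.4% at 1500 to 1999. At 2000 bases or more the share was 74.0% (91 of 123, interval 65.3% to 81.5%). The intervals of adjacent classes overlapped from 750 bases upward, while the step between 500 to 749 and 750 to 999 bases was larger than both intervals.

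**Figure D1:**
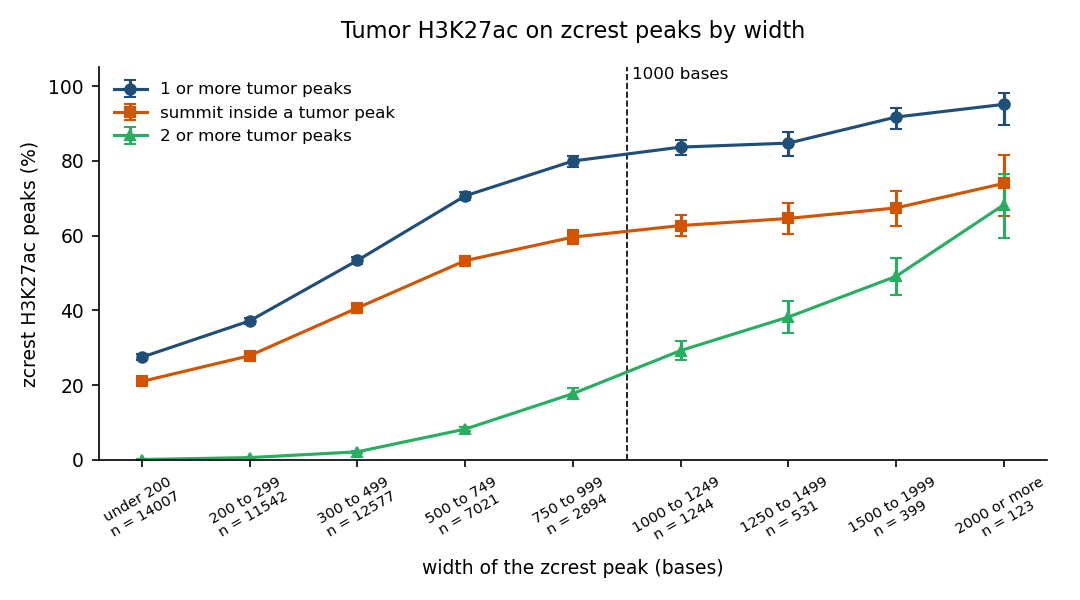
Share of zcrest H3K27ac peaks (y axis, %) with 1 or more tumor peaks (circles), with the summit inside a tumor peak (squares) and with 2 or more tumor peaks (triangles), by width class in bases (x axis). Bars are exact 95% intervals and the dashed line marks 1000 bases; summits inside a tumor peak rise to 62.7% just above the line, against 59.6% just below it.

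One broad region of the line often corresponded to several separate tumor peaks. Of the broad peaks, 1127 overlapped 1 tumor peak, 682 overlapped 2, 143 overlapped 3, 17 overlapped 4, 4 overlapped 5 and 1 overlapped 6. At least 2 tumor peaks were found on 847 broad peaks (36.9%, interval 34.9% to 38.9%) and on 1456 narrower peaks (3.03%, 2.88% to 3.19%), against 4.58% over all zcrest H3K27ac peaks. The share with at least 2 rose with width, from 8.25% at 500 to 749 bases to 17.7% at 750 to 999 and 29.3% at 1000 to 1249. Per kb of peak, tumor summits were no denser in broad peaks, at 0.898, than in narrower peaks, at 0.973.

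**Figure D2:**
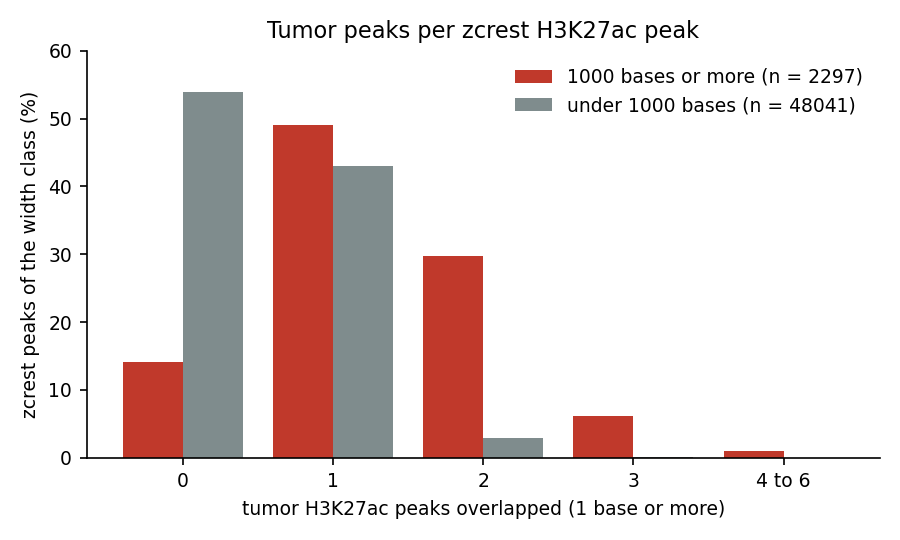
Percent of zcrest H3K27ac peaks (y axis) by the number of tumor H3K27ac peaks they overlap (x axis), for the 2297 peaks of 1000 bases or more (red, left) and the 48041 narrower peaks (grey, right). Of the broad peaks 29.7% overlap 2 tumor peaks, against 2.98% of the narrower peaks. A wide peak meets more tumor peaks through its width alone.

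The tumor peaks on broad zcrest peaks were mostly short pieces of them. Of 3014 overlaps, 1939 (64.3%) were with a tumor peak lying wholly inside the broad peak, and 41 broad peaks lay wholly inside 1 tumor peak. Tumor peaks covered 41.8% of the bases in broad peaks and 32.4% in narrower peaks. In the narrower peaks of 500 to 999 bases they covered 39.8%, near the broad value. The 2996 tumor peaks on broad zcrest peaks were themselves among the longer of their list, at a median of 378 bases, and their median fold enrichment was 7.89. Tumor peaks that met narrower zcrest peaks only had medians of 304 bases and 6.84-fold, and those that met no zcrest peak 208 bases and 4.91-fold. A long tumor peak meets another list more often through its length alone, so the sorting itself partly sets this order of lengths. The tumor list held 670 peaks of 1000 bases or more; 246 broad zcrest peaks (10.7%) overlapped one of them, and 240 of the 670 (35.8%) overlapped a broad zcrest peak. The read depth of both libraries is unknown here, and the width at which a region is called depends on it.

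Among the broad peaks, those with more tumor peaks were wider, and their −log10 q was higher, while fold enrichment differed little. A wide peak meets more tumor peaks through its width alone, so the sorting itself partly sets the order of widths. The median width was 1171 bases for the 323 with no tumor peak, 1192 for those with 1, 1256 for those with 2 and 1738 for the 165 with 3 or more. The median fold enrichment was 9.06, 9.18, 9.29 and 10.1 in the same order, and the median −log10 q was 29.6, 37.5, 38.5 and 42.2.

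The summit of broad peaks showed another relation to fold enrichment than that of narrower peaks. Broad peaks were ranked by fold enrichment and divided into 5 classes of 20%. In the lowest class, 70.7% of summits lay inside a tumor peak (interval 66.3% to 74.8%), and in the highest class 57.0% (52.3% to 61.6%). The classes between stood at 68.0%, 66.5% and 60.6%, in rising order of fold enrichment. The share of broad peaks with any tumor peak was flat over the same classes, from 84.8% to 86.7%. In the highest decile of fold enrichment over all zcrest peaks, 58.8% of 878 broad summits and 49.2% of 4103 narrower summits lay inside a tumor peak, and in the sixth decile 76.8% of 125 and 30.7% of 4909. Broad and narrower summits thus came closest at the strong end, apart from the lowest decile, where 24 broad peaks gave 45.8% (25.6% to 67.2%) and narrower peaks 37.8%. Narrower peaks were not split by width in these deciles. Their median fold enrichment was 7.49 at 500 to 999 bases, against 5.18 in all of them, and their share of summits inside a tumor peak rose with width. Width and fold enrichment therefore cannot be told apart in the narrower shares.

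**Figure D3:**
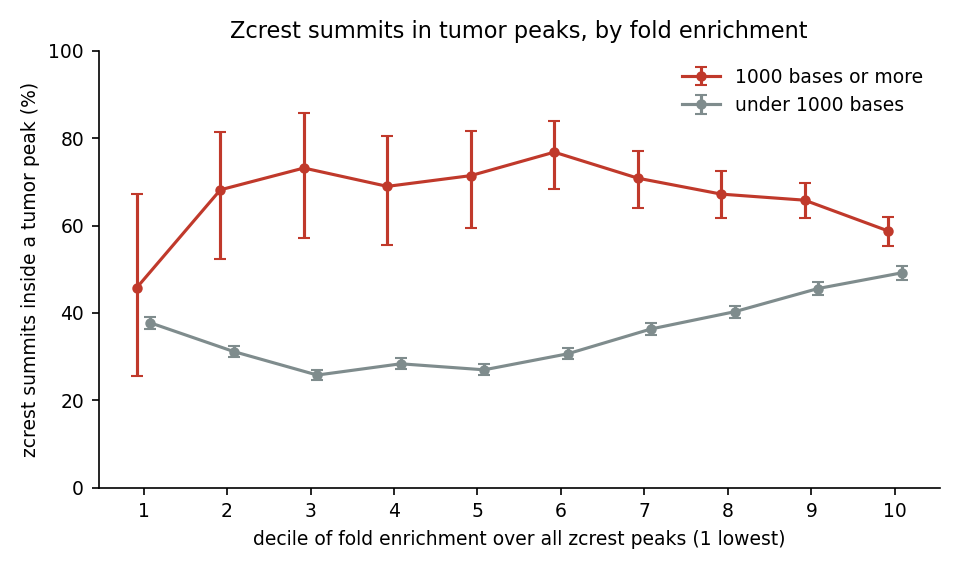
Share of zcrest summits inside a tumor H3K27ac peak (y axis, %) by decile of the authors' fold enrichment over all zcrest peaks (x axis), for peaks of 1000 bases or more (red) and under 1000 bases (grey), with exact 95% intervals. The shares are 76.8% and 30.7% in decile 6, where the broad share is highest, and 58.8% and 49.2% in decile 10. Narrower peaks are not split by width.

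Over all broad peaks, the nearest tumor summit was within 50 bases of the zcrest summit in 22.2%, within 200 bases in 56.1% and within 500 bases in 80.2%. For all narrower peaks, most of which had no tumor peak, the shares were 14.7%, 36.3% and 54.6%. Narrower peaks nearest in width were like the broad ones, with 53.1% within 200 bases at 500 to 749 and 57.0% at 750 to 999. Between broad and all narrower peaks, the order was the other way among peaks that overlapped a tumor peak. There a tumor summit lay within 50 bases of 25.8% of broad and 32.0% of narrower summits, within 200 bases of 65.3% (interval 63.1% to 67.4%) and 77.3% (76.7% to 77.9%), and within 500 bases of 92.7% and 97.3%. The median distance in these peaks was 131 bases for broad and 93 bases for narrower peaks. A wide peak can overlap a tumor peak far from its summit, so width alone partly sets this order. Of the 1974 broad peaks with a tumor peak, 491 (24.9%) had their summit outside it, a share like that of narrower peaks (24.3%, interval 23.8% to 24.9%).

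Summits of broad peaks were spread almost evenly along the peak. The central part of the peak, from 33.3% to 66.7% of its width, held 35.7% of broad summits (interval 33.7% to 37.7%), and the parts before and after it held 32.3% and 32.0%. In narrower peaks the central part held 53.5%. The high share was that of the shortest peaks: the central part held 71.6% of summits at 200 to 299 bases but 33.2% at 500 to 749 and 34.1% at 750 to 999. The median distance from summit to nearer end was 332 bases in broad and 95 bases in narrower peaks, and 34.7% of broad summits were within 250 bases of an end. Distance to an end is limited by the width, which chose the members, so these values are a description only. In bins of 5% of the width, broad summits were most frequent from 10% to 15% of the way along (7.71%) and from 85% to 90% (7.18%), against 4.57% to 5.75% in the bins between. The outermost bins held 0.087% and 0.22%.

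The cover of broad peaks by tumor peaks was higher at the centre than at the ends. A tumor peak was present in the outermost bins of 27.6% and 26.1% of broad peaks and near the centre of 49.3%. The 2765 tumor summits inside broad peaks were spread nearly evenly, as the zcrest summits were, with 34.1% in the central part and 34.6% and 31.4% before and after it.

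**Figure D4:**
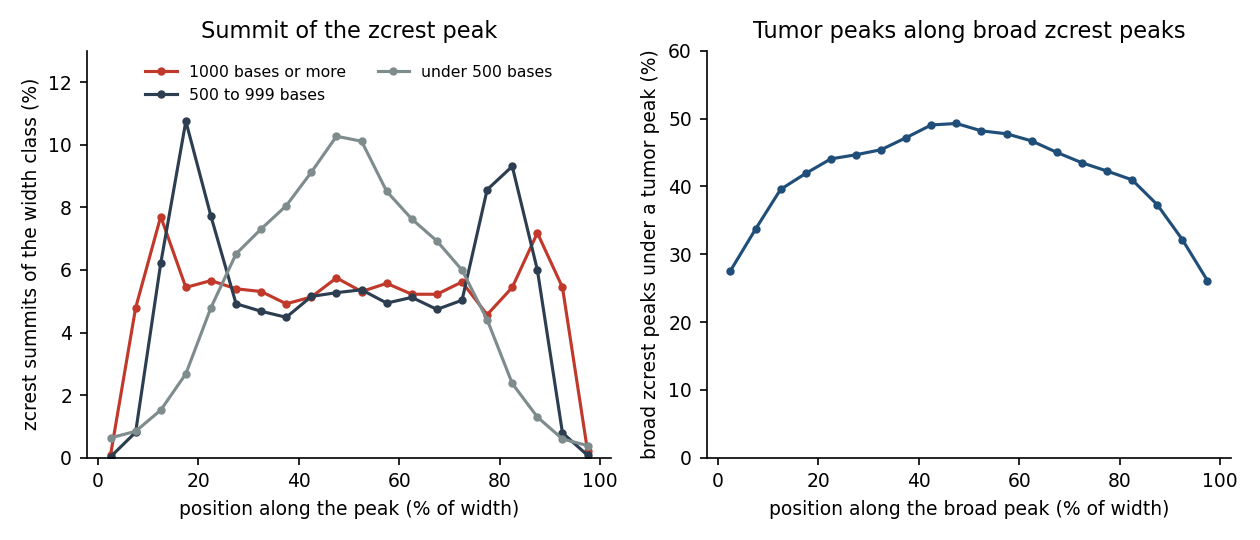
Left: share of zcrest summits (y axis, %) by position along the peak in bins of 5% (x axis, % of width) for peaks of 1000 bases or more (red), 500 to 999 (dark) and under 500 (grey). Right: share of broad zcrest peaks covered by a tumor peak (y axis, %) at each position; it is 49.3% near the centre and 26.1% in the last bin.

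Broad peaks usually had a close companion, as zcrest peaks of all widths did. Another zcrest peak of any width lay within 300 bases of 57.7% of broad peaks (interval 55.6% to 59.7%) and of 50.01% of narrower peaks (49.6% to 50.5%), and within 1000 bases of 72.3% and 67.6%. Companions within 1000 bases on both sides were found for 33.1% of broad and 19.1% of narrower peaks. At 750 to 999 bases the shares were 53.1% within 300 bases, 68.9% within 1000 bases and 25.2% on both sides. Over all zcrest peaks, 67.8% had a companion within 1000 bases. Where exactly 1 side had such a companion, the summit lay on the side facing it in 559 of 900 broad peaks (62.1%, 58.9% to 65.3%) and in 59.6% of narrower peaks. The share was 66.7% at 500 to 749 bases, 65.8% at 750 to 999 and 66.7% at 1000 to 1249. It was 48.8% (20 of 41, 32.9% to 64.9%) at 2000 or more, and 55.1% under 200. No zcrest peaks lay closer together than 52 bases, so where a broad peak ends and its companion begins depends on how the caller joins signal. When zcrest peaks with gaps of 300 bases or less were joined first, 6287 regions reached 1000 bases in place of 2297, and 49.3% of their summits lay inside a tumor peak, against 35.4% for the regions that stayed narrower.

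Broad peaks were far apart as a class, with a minority in groups. The median gap from a broad peak to the next was 205.4 kb, the quartiles were 23.6 kb and 740.0 kb, and the shortest and longest gaps were 53 bases and 9.73 Mb. At least 1 other broad peak within 12.5 kb was found for 775 (33.7%, interval 31.8% to 35.7%). Among narrower peaks, a far more numerous class, 86.2% had another narrower peak at that distance. These 775 formed 303 groups, 218 of them pairs, and 85 groups of 3 or more held 339. The 1522 lone broad peaks had their summit inside a tumor peak in 67.0% (64.6% to 69.4%), those in pairs in 62.6% (57.9% to 67.2%) and those in groups of 3 or more in 56.1% (50.6% to 61.4%). The median width in these classes was 1197, 1244 and 1305 bases and the median fold enrichment 9.13, 9.12 and 9.97.

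The fullest group lay on chr19:22943535-23015036, with 12 broad peaks of 1008 to 1726 bases and 43 narrower peaks in 71.5 kb. Of its 12, 9 overlapped a tumor peak, 7 had their summit in one, and 24.8% of their bases were under tumor peaks. The next was on chr6:43317460-43365263, with 11 broad peaks of 1065 to 2297 bases and fold enrichments of 6.27 to 18.4 in 47.8 kb; 9 overlapped a tumor peak and 26.0% of their bases were covered. A further one, on chr23:36101183-36140597, had 10 broad peaks of 1114 to 3061 bases with a median fold enrichment of 11.02. Here 9 overlapped a tumor peak, 6 of them at least 2, and 38.2% of bases were covered. In all 3 groups the covered share was below the 41.8% of all broad peaks.

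Chromosomes differed in how many broad peaks they carried. Chromosome 19 had the most per Mb, 190 broad peaks or 3.78 per Mb, and they were 7.00% of its zcrest peaks. Chromosome 23 followed with 130 (2.80 per Mb) and chromosome 14 with 127 (2.36 per Mb). The fewest per Mb were on chromosome 4 with 44 (0.709), chromosome 12 with 43 (0.848) and chromosome 1 with 55 (0.911), where they were 3.21%, 3.02% and 3.20% of zcrest peaks. Zcrest peaks of all widths were also densest on chromosome 19 (54.1 per Mb) and sparsest on chromosome 4 (22.1 per Mb), with 28.1 on chromosome 12 and 28.5 on chromosome 1. Chromosome lengths were taken as the last peak end in the 3 lists. On chromosome 4, 33 of the 44 lay in the first 25 Mb and 11 beyond, which were 3.17% and 3.31% of the zcrest peaks there. The median over the 25 chromosomes was 1.68 per Mb. The tumor had 38 peaks of 1000 bases or more on chromosome 19 (0.757 per Mb), 37 on chromosome 23 (0.798) and 24 on chromosome 4 (0.387).

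The difference in summits inside tumor peaks was found on every chromosome. Broad peaks exceeded narrower peaks on 25 of 25, by 11.7 percentage points on chromosome 22 at the least and by 44.6 on chromosome 10 at the most (median 30.1). The share for broad peaks was lowest on chromosome 9 (47.8% of 115) and highest on chromosome 12 (79.1% of 43). Chromosome 9 was also lowest for narrower peaks (28.9%). Narrower peaks were not split by width on each chromosome. Over all chromosomes the share was 59.6% at 750 to 999 bases, against 64.6% in broad peaks.

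**Figure D5:**
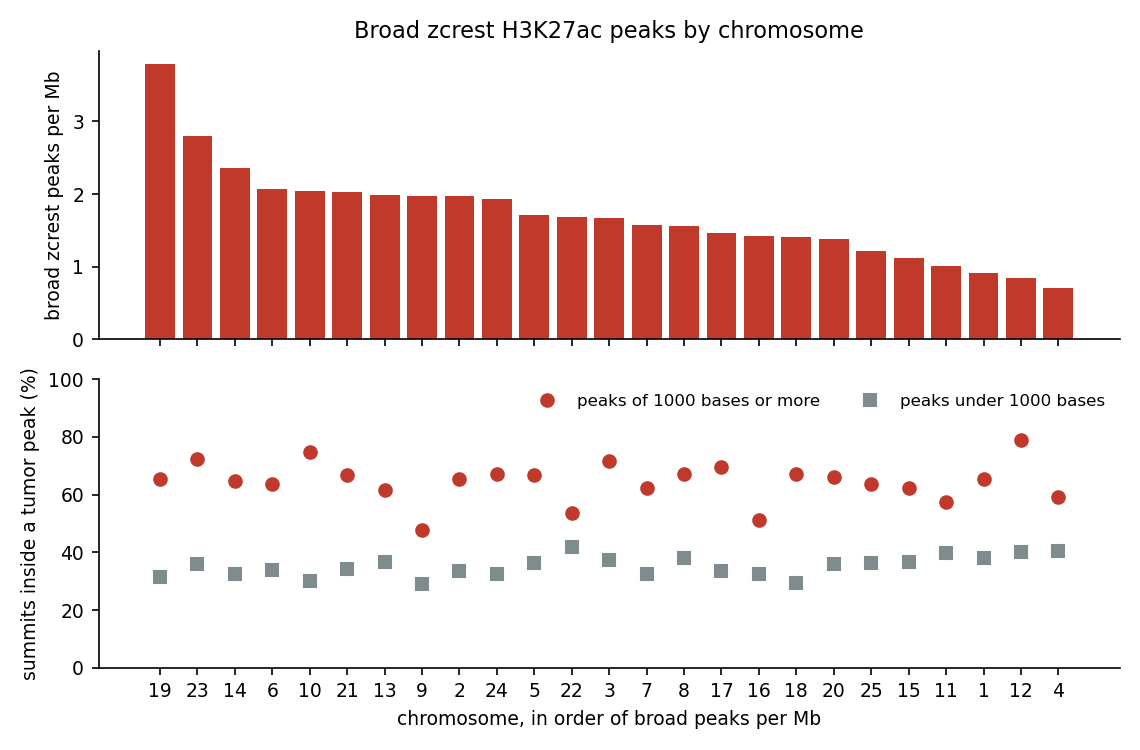
Upper panel: broad zcrest H3K27ac peaks per Mb (y axis) on each of the 25 chromosomes (x axis, in falling order), from 3.78 on chromosome 19 to 0.709 on chromosome 4. Lower panel: share of summits inside a tumor peak (y axis, %) for peaks of 1000 bases or more (red circles) and under 1000 bases (grey squares), with the circle above the square on all 25.

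At the scale of 1 Mb, broad peaks were found in 871 of 1369 windows (63.6%), and narrower peaks in 1367 (99.85%). The 10 windows fullest in broad peaks held 137 of them (5.96%). For narrower peaks, the 10 fullest held 1487 (3.1%). Broad peaks are far fewer, which by itself leaves more windows empty and makes counts per window less even. The window fullest in broad peaks held 16, on chr9:14000001-15000000, of which 13 overlapped a tumor peak. A window on chr19:26000001-27000000 held 11, of which 5 did. The longest stretches without a broad peak were on chr4:43318777-53048652 (9.73 Mb), chr20:43111245-52653412 (9.54 Mb) and chr1:8230427-17284728 (9.05 Mb). They were not free of acetylation, with 58, 225 and 209 narrower zcrest peaks and 46, 343 and 247 tumor peaks in the same order.

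The widest broad peak lay on chr9:26806644-26811821 (5178 bases, 17.3-fold). Its summit was 74.5% of the way along, inside 1 of 3 tumor peaks that covered 38.1% of it. The second, on chr11:26253937-26257942 (4006 bases, 13.1-fold), also had 3 tumor peaks, the longest of 1572 bases. The next, on chr9:9109644-9113491 (3848 bases, 9.12-fold), had 4 tumor peaks of at most 274 bases, and its summit lay in none of them. All of the 10 widest overlapped a tumor peak, with a covered share of 6.61% to 83.4%. The best covered was on chr7:69215561-69218890 (3330 bases, 12.99-fold, 4 tumor peaks). The least covered was on chr2:20756421-20759703 (3283 bases, 11.2-fold), with 1 tumor peak of 217 bases. The other 5 were on chr18:22774843-22778245 (3403 bases, 3 tumor peaks), chr6:30572743-30576050 (3308 bases, 2), chr6:52626879-52630033 (3155 bases, 3), chr20:23724095-23727313 (3219 bases, 3) and chr10:20581332-20584455 (3124 bases, 4).

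The broad peak divided among most tumor peaks, 6, was on chr6:30577405-30580181 (2777 bases, 15.6-fold). Those tumor peaks were 147 to 491 bases long, covered 43.4% of it and had fold enrichments of 4.71 to 15.3 within the tumor list. The 4 with 5 tumor peaks were on chr25:18813467-18816294 (8.80-fold), chr6:9059524-9062164 (4.68-fold), chr14:27768381-27770890 (20.2-fold) and chr7:36619108-36621557 (10.7-fold). Tumor peaks covered 51.2% to 56.6% of these 4.

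Broad peaks without a tumor peak were 323 (14.1%, interval 12.7% to 15.6%), against 53.9% of narrower peaks and 52.1% of all zcrest H3K27ac peaks. The share fell with width, and was 20.0% at 750 to 999 bases and 16.3% at 1000 to 1249. A wide peak misses another list less often through its width alone. A tumor peak lay within 1000 bases of an end for 131 of the 323 (40.6%), and the median distance was 1891 bases. The share within 1000 bases was not counted for other zcrest peaks. Within 10000 bases, 245 (75.9%) had a tumor peak. Not counting the tumor peaks they overlapped, that share was 83.0% over all broad peaks (interval 81.4% to 84.5%) and 77.9% over all zcrest peaks. For 78 of the 323 (24.1%) the nearest tumor peak was over 10000 bases away. The median fold enrichment of the 323, 9.06, was near the 9.23 of all broad peaks, while their median −log10 q, 29.6, was below the 37.1 of all broad peaks. The widest 5 were on chr16:41795184-41797488 (2305 bases, 5.03-fold), chr13:23853082-23855354 (2273 bases, 8.64-fold), chr7:36033221-36035479 (2259 bases, 8.50-fold), chr5:61198767-61201022 (2256 bases, 12.1-fold) and chr22:12142010-12144170 (2161 bases, 15.9-fold). The nearest tumor summit was 65391 bases from the summit of the chromosome 16 peak and 336 bases from that of the chromosome 5 peak.

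The highest fold enrichment, 30.7, was that of a broad peak on chr18:11718712-11720033 (1322 bases). It stood alone, with the nearest zcrest peak 51064 bases and the nearest tumor summit 11574 bases away. The next 4 all overlapped tumor peaks: chr3:22272111-22273895 (26.7-fold), chr7:27330862-27332684 (26.1-fold), chr13:1229714-1230853 (25.9-fold) and chr10:23170875-23172152 (25.5-fold). Tumor peaks covered 88.7% of the chromosome 3 peak and 29.1% to 33.3% of the other 3.

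Peaks of sox10, which specifies melanocytes from the neural crest, were seldom found on zcrest H3K27ac peaks of either width class. The sox10 list held 4202 peaks in 0.514 Mb. A sox10 peak overlapped 16 of 2297 (0.70%, interval 0.40% to 1.13%) and 215 of the narrower peaks (0.45%, 0.39% to 0.51%), against 0.459% over all zcrest H3K27ac peaks. The intervals overlap, and per Mb of peak the number of sox10 overlaps was 8.12 in broad and 15.6 in narrower peaks. Overlaps at peak ends add more per Mb in short peaks, and the broad value rests on 25 overlaps. Among the narrower peaks, those of 500 to 999 bases had 5.19 per Mb, fewer than the broad peaks. Of the 16, 10 overlapped a tumor peak and 13 had a single sox10 peak. When all lists were cut at a −log10 q of 5, 3 broad peaks had sox10, and 1 when they were cut at 10. These cuts shortened the sox10 list too. The share over narrower or all zcrest peaks was not counted at them, so the fall cannot be called particular to broad peaks. The widest of the 16 was the chromosome 2 peak starting at 20756421, with 4 sox10 peaks of at most 4.79-fold. The next were on chr10:22073960-22075606, chr7:23255602-23257184 and chr20:33262823-33264346, each with 1 sox10 peak (4.35-, 4.39- and 5.20-fold). The remaining one of the 5 widest, on chr16:9255798-9257306 (8.41-fold H3K27ac), had 5 sox10 peaks of up to 20.6-fold and no tumor peak.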

How the data were processed

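The submitters' processing notes name Bowtie, MACS2 2.0 and the Zv9 assembly. Which control and thresholds were used for calling is not given in the sources here. Each deposited list belongs to 1 library, per the labels, and gives for each peak the authors' fold enrichment (a ratio), −log10 p-value, −log10 q-value and summit offset. The deposited score is the −log10 q times 10, truncated. The highest q over the 3 lists was 0.0497. Read depth is unknown, and 3 input libraries were left out.

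Width is end minus start, and overlap is 1 base or more. The overlap counts were checked on simulated data. Python 3.11.15, numpy 2.4.6, pandas 2.3.3, scipy 1.17.1 and matplotlib 3.10.9 were used. No Zv9 annotation was used here, so regions carry no gene names. The members, lists and alternatives were chosen with earlier results of these data known. Regions named one by one are the 10 widest, the 5 with most tumor peaks, the 5 widest without one, the 5 highest in fold, the 5 widest with sox10, the 3 fullest groups, the 3 longest stretches, the 3 peaks on each side of the threshold and the 3 chromosomes at each end. The chromosomes 9 and 19 windows, the summits facing a companion, the fold classes and the classes by group size were added after the values were seen.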

Additional observations from a re-analysis of the deposited data

How the results depend on the processing

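Of 72 alternatives to 8 values, 23 stayed inside the 95% interval of the reported share or within 1.5 times the count, but 8 of these only left out the mitochondrial sequence, which holds no H3K27ac peak. In the 9 alternatives for both width classes, the share for broad summits exceeded that for narrower summits, by 13.9 to 37.9 percentage points. It was the share inside a tumor peak, except where a tumor summit within 200 bases was counted instead. The alternative without the mitochondrial sequence repeated the reported values. With thresholds of 500, 1500 and 2000 bases, broad peaks numbered 12212, 522 and 123. In that order, 55.7%, 22.0% and 10.6% had another broad peak near, 75.7%, 92.5% and 95.1% a tumor peak, 15.9%, 53.6% and 68.3% at least 2, and 56.9%, 69.0% and 74.0% their summit inside one, against 29.6%, 35.9% and 36.1% of narrower summits. Sox10 was on 0.33% at 500 bases, and the central part of the peak held 39.8% of summits at 2000. At a −log10 q of 5 or more and of 10 or more, 83.8% and 77.3% had a tumor peak, and 33.7% and 22.3% at least 2. Sox10 was on 0.13% and 0.045%, with the sox10 list cut as well. Of narrower summits, 36.9% and 39.6% lay inside a tumor peak. For broad summits this moved at 10, to 59.7%. Joining peaks gave 6287 broad regions, of which 41.3% were near another, 40.3% had a central summit, 84.4% a tumor peak, 39.2% at least 2 and 49.3% their summit inside one, against 35.4%. With the tumor list as short as the zcrest list, 83.9% had a tumor peak, 33.9% at least 2, and 33.5% of narrower summits were inside one. Requiring the tumor summit, or 50% of the tumor peak, inside gave 83.2% and 83.6% with 1 or more and 30.9% and 30.5% with 2 or more. A tumor summit within 200 bases was found for 56.1% of broad and 36.3% of narrower summits, but for 57.0% in peaks of 750 to 999 bases. The central 50% of the width held 53.4% of broad summits, and 65.3% were at least 250 bases from both ends. Another broad peak lay within 5000 bases of 26.4% and within 50000 bases of 47.4%. The cause of these shifts was not tested beyond what each setting itself changes. No paired analysis was possible because each group is 1 library. Without depth or replicates, no share here can be set against biological spread.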
